A study of Mus musculus with 2 samples.

Results

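Cultured brain pericytes (PCs) of passage 5 (PC5) in which *Rgs5* was detected were compared with PC5 cells of the same depth in which it was not. *Rgs5*-positive cells were barcodes with more than 1000 genes, under 20% mitochondrial unique molecular identifiers (UMIs, tags that each mark 1 captured RNA molecule) and at least 1 *Rgs5* UMI. They numbered 282 of 9950 kept PC5 cells, of 10629 barcodes in that library and of 14699 kept cells in all. The cells were selected on their *Rgs5* UMIs, so the *Rgs5* values below are a description.

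The study sequenced single droplet-captured cells of primary PC cultures from wild type female C57BL/6N mice aged 6 to 8 weeks, with the brains of 6 mice pooled for an isolation. Single libraries were made from PCs grown without endothelial cells to passage 5 and to passage 20 (PC20). By the paper's methods these were separate isolations, whereas the deposited design speaks of a single one, so passage and isolation cannot be told apart. The PC5 library held 223978480 UMIs, with a median of 21700 per kept cell, and the PC20 library held 191306354, with a median of 33424. A single culture stands behind each library and cells are not replicates of a culture, so no test was made and no p-value is given. All 95% intervals cover counting error only. The libraries shared 20 barcode sequences, of which 1 belonged to an *Rgs5*-positive cell.

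RGS5 belongs to the regulators of G protein signalling, proteins that speed up the hydrolysis of GTP by the alpha subunits of heterotrimeric G proteins and so shorten the signal of the receptors coupled to them. In blood vessels these receptors include those for endothelin, angiotensin and sphingosine-1-phosphate, which set the tone of mural cells, the PCs and smooth muscle cells of the vessel wall. *Rgs5* is widely used as a marker of brain PCs, together with *Pdgfrb*, *Cspg4* (which encodes NG2), *Abcc9* and *Kcnj8*.

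*Rgs5* (ENSMUSG00000026678) lies on chr1:169655501-169695813 of GRCm38, on the plus strand. The neighbouring family member, *Rgs4* (ENSMUSG00000038530), lies 45663 bases away at chr1:169741477-169747642 on the minus strand. The 250 bases before the RefSeq start of each gene (GRCm38.p6, 5′ to 3′ on the gene's strand) are shown because *Rgs4*, although scarce, is described below as the neighbour and relative of *Rgs5*. Capitals mark matches to CCAAT. On the other strand that motif reads as ATTGG. Capitals also mark the TATA box motif, TATAAA. The *Rgs5* window is chr1:169655251-169655500 on the plus strand and the *Rgs4* window chr1:169747643-169747892 on the minus strand.
Rgs5: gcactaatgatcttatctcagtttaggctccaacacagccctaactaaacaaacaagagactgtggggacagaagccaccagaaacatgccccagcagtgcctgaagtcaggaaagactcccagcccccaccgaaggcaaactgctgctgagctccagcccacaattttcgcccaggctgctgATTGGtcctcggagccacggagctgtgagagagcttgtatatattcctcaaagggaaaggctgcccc
Rgs4: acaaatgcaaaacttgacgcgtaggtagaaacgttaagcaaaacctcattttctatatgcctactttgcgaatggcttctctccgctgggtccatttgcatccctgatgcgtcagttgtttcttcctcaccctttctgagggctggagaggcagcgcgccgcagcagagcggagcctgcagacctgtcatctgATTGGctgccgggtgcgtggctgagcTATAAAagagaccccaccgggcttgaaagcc
Both windows held 1 CCAAT match on the other strand, and the *Rgs4* window also held TATAAA. Of 32851 such windows of mouse genes, 33.8% held CCAAT and 12.4% held TATAAA on either strand. Neither window held the AP-1 core TGANTCA, found in 6.75% of all windows, or the NF-kB core motif, found in 17.6%. These are letter matches and not binding sites. Of the 10 genes with the highest ratio below, 6 had a window in the table.

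*Rgs5* was a rare and low transcript in PC5. The 282 cells were 2.83% of kept PC5 cells (95% exact binomial interval 2.52 to 3.18), and they held 405 *Rgs5* UMIs, a level of 1.82 CPM, or UMIs per 1000000 UMIs of the library (exact Poisson interval 1.64 to 2.00). In PC20, *Rgs5* was at 0 of 4749 cells, which allows a share of cells with a UMI of up to 0.0632% (3 counts) and does not limit the share that expressed the gene, although the median depth there was higher. Free RNA in the droplets was gauged on cluster 12 of PC5, 31 cells led by *Aqp4*, a water channel known from astrocytes. None of them held an *Rgs5* UMI, at a median of 10933 UMIs per cell, but 31 cells allow a share of cells with a UMI of up to 9.68% (3 counts).

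A single UMI was seen in 230 cells (81.6% of the positive cells), which lay just inside the rule, and the cells just outside it held 0. The other 52 cells, with 2 or more UMIs, held 175 UMIs (43.2% of the total). The 4 cells with the most *Rgs5* held 14, 11, 10 and 7 UMIs. The cell with 14 was shallow, with 7672 UMIs in all, and 3 of these 4 cells lay in cluster 2, described below.

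**Figure D1:**
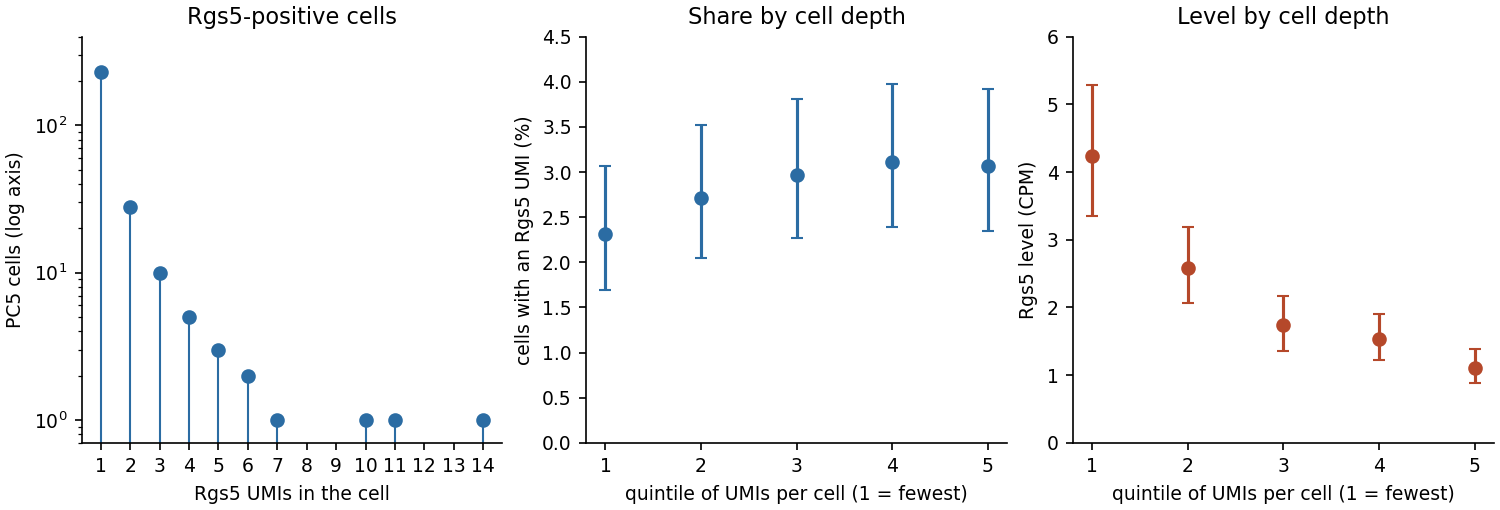
Left, number of PC5 cells (log axis) by the number of Rgs5 UMIs in the cell; middle and right, share of cells with an Rgs5 UMI (%) and Rgs5 level (CPM) by quintile of total UMIs per cell, with 95% intervals for counting error. Most positive cells held 1 UMI and 1 cell held 14, the share lay between 2.31% and 3.12% in all quintiles, and the level was highest in the quintile with the fewest UMIs.

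The share of positive cells varied little with depth, and the level was highest in the shallowest cells. Across quintiles of total UMIs per cell the share was 2.31, 2.71, 2.96, 3.12 and 3.07%, with overlapping intervals. The *Rgs5* level over the same quintiles was 4.24 (3.35 to 5.29), 2.59, 1.73, 1.54 and 1.11 CPM (0.885 to 1.38), so the intervals of the shallowest and deepest quintiles did not overlap. These intervals leave out the spread between cells, and 1 cell held 14 of the 78 *Rgs5* UMIs of the shallowest quintile. When each cell was thinned to the same number of UMIs, which left out 1103 shallower cells, 139 of 8847 cells (1.57%, 1.32 to 1.85) kept an *Rgs5* UMI.

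Each positive cell was set beside the 5 *Rgs5*-negative cells nearest to it in total UMIs, 1410 matched cells in all. Depth was alike by this choice, with a median of 22471.5 UMIs per positive cell and 22469 per matched cell, and the median number of genes was 4540 and 4536. Mitochondrial genes took a median of 2.64% and 2.60% of UMIs and ribosomal protein genes 30.9% and 31.2%. A UMI of the proliferation genes *Mki67* or *Top2a* was found in 44.3% (38.4 to 50.3) of positive and 45.3% (42.7 to 48.0) of matched cells. Among the 52 cells with 2 or more *Rgs5* UMIs the proliferating share was 32.7% (20.3 to 47.1), with an interval that includes the share of the matched cells.

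Positive cells were found in 12 of 13 clusters of PC5 and were most common in clusters 2 and 5 at the settings used. *Rgs5* was left out of the clustering, and the clusters were not named. Cluster 2 (1113 cells, median 17211 UMIs) was led by *S100a8*, *Ccl12*, *Slc1a3*, *Cxcl10*, *Ccl11* and *Trf*, and 71 of its cells were positive (6.38%, 5.02 to 7.98). Cluster 5 (1055 cells, median 21914 UMIs) was led by *Dkk2*, *Il11*, *Pcsk6*, *Hgf* and *Add2*, and 60 of its cells were positive (5.69%, 4.37 to 7.26). The other clusters together held 151 positive cells of 7782 (1.94%, 1.65 to 2.27). Which clusters followed the first depended on the settings. At resolution 0.4 the highest shares were 6.43% and 3.27%, without regression 6.34%, 4.38% and 4.28%, and at resolution 1.2 there were 4 clusters between 5.84% and 9.27%.

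Clusters 2 and 5 thus held 46.5% of the positive cells against 19.8% of the matched cells, and 33 of the 52 cells with 2 or more *Rgs5* UMIs. The *Rgs5* level was 7.17 CPM in cluster 2 and 3.60 CPM in cluster 5. Cluster 10 (345 cells) followed with 4.93% of its cells (2.90 to 7.77), an interval that overlaps those of clusters 2 and 5. At the other end stood cluster 3, led by *Atf3*, *Fst* and *Aldh1a1*, with 1.10% (0.572 to 1.92), and cluster 9 with 0.862%. Cluster 9 was led by transcripts that include *Acta2*, *Actg2* and *Tagln*, and its cells were shallow (median 5594 UMIs). After thinning, cluster 2 had the highest share at 4.46% (3.24 to 5.96). Cluster 5, at 2.53% (1.64 to 3.71), then lay beside cluster 7 at 2.25% (1.34 to 3.53) and cluster 10 at 2.07% (0.837 to 4.22), with overlapping intervals.

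**Figure D2:**
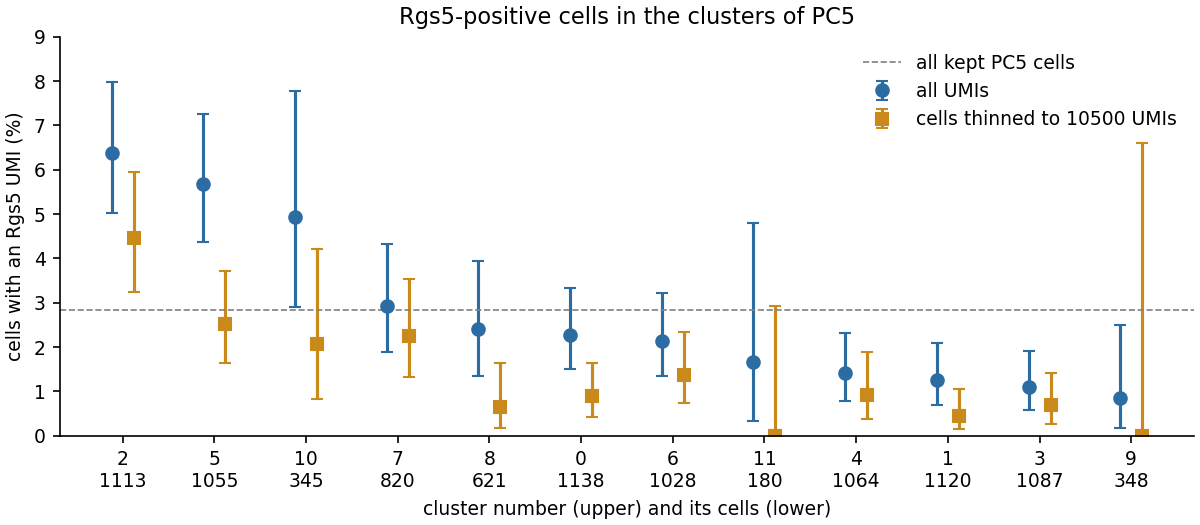
Share of cells with an Rgs5 UMI (%) in each PC5 cluster of at least 50 cells, with all UMIs (circles) and after thinning to equal depth (squares); bars are 95% exact intervals for counting error and the dashed line is the share over all kept cells. Clusters 2 and 5 stand at 6.38% and 5.69%, and clusters 1, 3, 4 and 9 lie under 1.5%.

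The other marker genes of PCs did not move with *Rgs5* as a group. Levels below are CPM over the summed UMIs of the 282 positive and of the 1410 matched cells, and log2 ratios are positive over matched, with their interval. *Pdgfrb*, the PDGF-BB receptor, was at 37.1 CPM in positive and 44.0 CPM in matched cells (log2 ratio -0.25, -0.45 to -0.05), and 51.1% and 56.9% of cells held a UMI of it. *Cspg4* was at 4.12 and 5.22 CPM (-0.34, -0.98 to 0.25), and 23 positive cells held both transcripts. *Anpep*, which encodes CD13, was at 2.13 and 1.40 CPM (0.61, -0.37 to 1.49). The intervals of *Cspg4* and *Anpep* include 0, and *Pdgfrb* was lower by less than 1.5-fold.

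Several defining PC transcripts were not detected in the positive cells. *Abcc9*, a subunit of the vascular ATP-sensitive potassium channel, was at 0 in positive and matched cells alike, which for 282 cells allows a share of cells with a UMI of up to 1.06% (3 counts). *Higd1b*, *Vtn* and *Atp13a5* were also at 0 in the positive cells and were seen in 1, 2 and 0 of the 1410 matched cells, and *Kcnj8*, the channel's pore subunit, was seen in 1 positive and 3 matched cells. These genes were at or near 0 in both sets of cells. The cells were therefore called by their rule, *Rgs5*-positive, and not by a mature PC type.

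Among genes of at least 10 CPM over kept PC5 cells, 119 of 7527 (1.58%) were more than 1.5-fold higher in positive cells and 67 (0.89%) more than 1.5-fold lower, 2.47% in either direction. The median log2 ratio over all 7527 genes was 0.00 and the middle 90% lay between -0.33 and 0.37. Of the 36 genes of a PC marker list, 14 reached 10 CPM. *Notch3* and *Ednra* were past 1.5-fold higher and none was past it lower, with a list median of -0.02. *Notch3*, a receptor needed by mural cells, was at 14.5 and 9.55 CPM (0.60, 0.25 to 0.94). Its ratio was 0.49, inside 1.5-fold, when the cell with most of its UMIs was left out of each set.

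*Ednra*, the endothelin receptor through which endothelin-1 constricts mural cells, was at 19.8 CPM in positive and 10.5 CPM in matched cells (0.91, 0.61 to 1.21). It was found in 30.9% and 18.4% of cells, and PC20 held 0 UMIs of it, which allows up to 0.0157 CPM (3 counts). *Ednra* was also higher in cluster 2 as a whole, at 32.7 CPM, and its ratio against matched cells of the same cluster was 0.42 (0.13 to 0.70). *Ndufa4l2*, a mitochondrial protein abundant in brain PCs, was found in 47.5% and 32.8% of cells (45.9 and 32.9 CPM, ratio 0.48), and its within-cluster ratio was 0.06. *Mfge8*, the most abundant list member, was at 253 and 243 CPM. The summed list was at 1000 CPM in positive cells and 1033 CPM in matched cells.

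Markers of other cell types gave no single picture. Of 27 smooth muscle genes 16 reached 10 CPM, none was past 1.5-fold higher and *Acta2* and *Tagln* were past it lower (2 of 16, beside 0.89% of all genes), with a list median of -0.17. *Tagln*, which encodes the actin-binding protein transgelin, was at 136 and 215 CPM (-0.66, -0.77 to -0.56). *Myh11*, the myosin that defines mature smooth muscle, had 1 UMI in positive and 3 UMIs in matched cells. Of 20 fibroblast genes 14 reached 10 CPM, with *Dcn* and *Serpinf1* higher past 1.5-fold (2 of 14, beside 1.58% of all genes), none past it lower and a list median of -0.13. The ratios of 9 of the 14 were below 0, the lowest being those of the surface protein genes *Thy1*, at 39.5 and 57.0 CPM (-0.53), and *Ly6a*, at 156 and 223 CPM (-0.51). *Dcn*, the matrix proteoglycan decorin, was at 96.5 and 47.0 CPM (1.04, 0.90 to 1.17) and its within-cluster ratio was 0.37. *Pdgfra*, the other PDGF receptor, was at 110 and 85.5 CPM (0.37), and *Col3a1* at 1221 and 1140 CPM (0.10).

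Of 17 endothelial genes only 4 reached 10 CPM, and 6 were at 0 in the positive cells, among them *Tek*, *Tie1* and *Erg*. *Cdh5*, which encodes the adhesion molecule VE-cadherin, was the most abundant and was higher, at 283 and 165 CPM (0.78, 0.70 to 0.85), in 87.9% and 74.6% of cells. *Kdr* and *Ly6c1* were past 1.5-fold lower (2 of 4, beside 0.89% of all genes). *Pecam1*, the usual endothelial marker, had 5 UMIs in the positive cells. The summed list, 332 against 225 CPM, therefore followed *Cdh5*.

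Few members of the remaining lists reached 10 CPM. Of 12 microglial and leukocyte genes none reached 10 CPM and 9, including *Ptprc*, *Cd48* and *Adgre1*, were at 0 in positive cells, with summed levels of 5.34 and 4.73 CPM and *Cd68* the most abundant. *Csf1r* had 7 UMIs in positive and 11 UMIs in matched cells. Of 9 oligodendrocyte genes 6 were at 0, among them *Mobp* and *Mag*, and the summed levels were 16.6 and 20.3 CPM, mostly *Cnp*. Of 9 astrocyte genes *Gfap*, *Aqp4* and *S100b* were at 0, and the summed levels were 324 and 311 CPM with *Gja1* the most abundant. Of 9 neuronal genes 2 reached 10 CPM, with a median ratio of -0.42 and *Stmn2* the most abundant at 46.4 and 56.1 CPM.

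**Figure D3:**
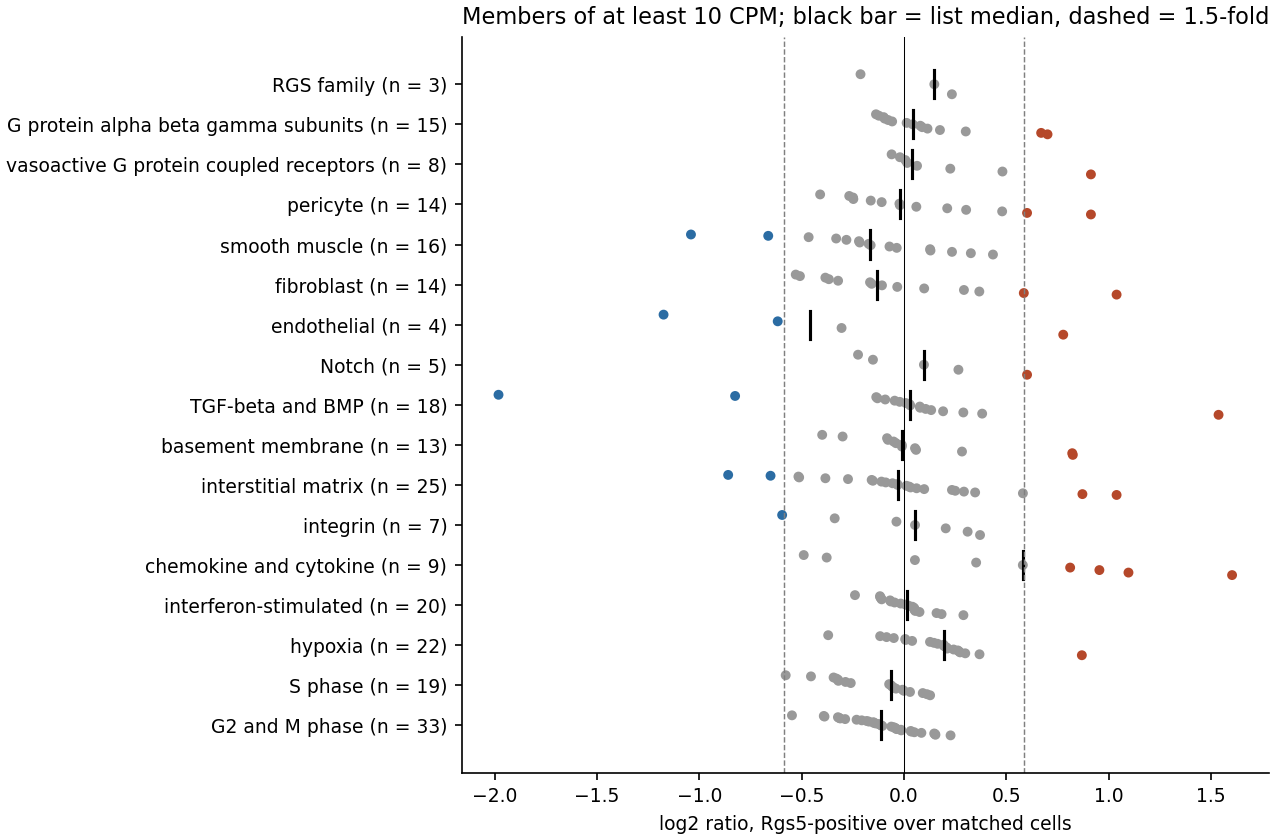
Log2 ratio of CPM, positive over matched cells, for list members of at least 10 CPM; 1 point is 1 gene, black bars are list medians, dashed lines mark 1.5-fold, and red and blue points lie past it. Most list medians lie near 0, and the median of the chemokine and cytokine list lies at 0.58.

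The family and pathway of RGS5 were examined next. Of 21 *Rgs* genes in the files, *Rgs5* included, 3 others reached 10 CPM and none was past 1.5-fold. *Rgs12* had a ratio of 0.23, *Rgs20* of 0.15 and *Rgs19* of -0.21. Of the rest, 8 were at 0 in the positive cells. *Rgs2*, an inhibitor of Gq signalling, was at 8.23 and 4.51 CPM (0.87), and at 0.42 without the cell that held the most of it in each set. *Rgs16* was at 6.86 and 8.84 CPM (-0.37, -0.85 to 0.09).

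*Rgs4*, the neighbour of *Rgs5* whose window is printed above, was scarce but stood apart from the rest of the family. It had 23 UMIs in the 282 positive cells and 8 UMIs in the 1410 matched cells, of 118 UMIs in kept PC5 cells, and PC20 held 1 UMI of it. Its level was 3.51 and 0.244 CPM (log2 ratio 3.85, 2.63 to 5.22), in 13 positive cells (4.61%) against 0.43% of matched cells. The ratio rests on the 8 matched UMIs. It was 3.00 against all *Rgs5*-negative cells, 2.94 with 10 matched cells per positive cell, 4.25 without the top cell of each set and 2.14 (1.27 to 3.01) within clusters. Over all kept PC5 cells its level was 0.529 CPM, below the limit of 1 CPM set for ranking, and the gene is named as a member of the PC and *Rgs* lists.

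Of 15 G protein subunit genes that reached 10 CPM, *Gnb4* and *Gng11* were past 1.5-fold higher (2 of 15, beside 1.58% of all genes, list median 0.04). *Gng11*, a gamma subunit, was at 194 and 122 CPM (0.67, 0.58 to 0.76) in 91.5% and 83.8% of cells. The alpha subunits differed little, with *Gnai2* at 620 and 587 CPM (0.08), *Gnaq* at 72.6 and 71.9 CPM (0.01) and *Gnas* at 1219 and 1146 CPM (0.09). Of 45 vasoactive receptors 8 reached 10 CPM and *Ednra* was past 1.5-fold higher (1 of 8), with a median of 0.04. *S1pr2*, a sphingosine-1-phosphate receptor, was the most abundant at 62.5 and 53.4 CPM (0.23). *Oxtr*, *Avpr1a* and *Agtr1b* were at 0 in the positive cells.

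The 10 genes with the highest ratio at 10 CPM or more were *Il33*, *Nptx1*, *Sparcl1*, *Serinc5*, *Trf*, *Bmp7*, *Il11*, *Gas1*, *Tgfbi* and *Add2*. *Il33* (chr19:29925114-29960718), a cytokine of the interleukin-1 family that is held in the nucleus, was at 107 CPM in positive and 26.4 CPM in matched cells (2.01, 1.87 to 2.16), in 38.3% and 17.9% of cells. The *Il33* ratio depended on the cells compared. It was 2.60 with 1 matched cell per positive cell, 1.81 with 10 and 1.69 against all *Rgs5*-negative cells. For cells with at least 2 *Rgs5* UMIs it was 1.17. These values all lie outside the interval. *Nptx1*, a secreted pentraxin known from synapses, was at 37.5 and 10.5 CPM (1.83, 1.59 to 2.07), in 31.6% and 11.3% of cells. *Trf*, the iron carrier transferrin, was at 105 and 31.6 CPM (1.73, 1.59 to 1.87). The genes were chosen by this ratio, so their values are a description.

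*Bmp7*, a ligand of the bone morphogenetic protein (BMP) family, was at 47.1 and 14.5 CPM (1.70, 1.48 to 1.90), in 44.3% and 18.8% of cells. *Il11*, a cytokine of the interleukin-6 family, was at 45.1 and 14.9 CPM (1.60, 1.39 to 1.81). *Tgfbi*, a matrix protein induced by TGF-beta, was at 127 and 43.7 CPM (1.54, 1.41 to 1.66), in 73.4% and 40.6% of cells. It was the gene of these 10 found in the largest share of positive cells. *Sparcl1*, a matricellular protein, had a ratio of 1.81, *Serinc5*, a membrane protein, of 1.74, *Gas1*, a membrane-anchored hedgehog co-receptor, of 1.55 and *Add2*, the membrane skeleton protein beta-adducin, of 1.49.

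All 10 were still past 1.5-fold without the cell that held the most UMIs of each gene and when positive cells were matched within their cluster. Both counts reuse the positive cells on which the 10 were ranked, so they are a description. The within-cluster ratios were smaller, from 0.87 for *Tgfbi* to 1.54 for *Nptx1*, with 1.17 for *Il33*. *Trf*, *Il11* and *Add2* are leading genes of clusters 2 or 5. In clusters 2 and 5 and in the other clusters combined, *Il33* was at 210, 171 and 49.8 CPM in positive cells and at 133, 46.9 and 21.1 CPM in matched cells of the same cluster. *Bmp7* was at 90.7, 44.2 and 34.6 CPM against 54.8, 24.3 and 9.60 CPM. Both were thus higher in positive cells in each of the 3 sets of clusters, by different amounts.

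**Figure D4:**
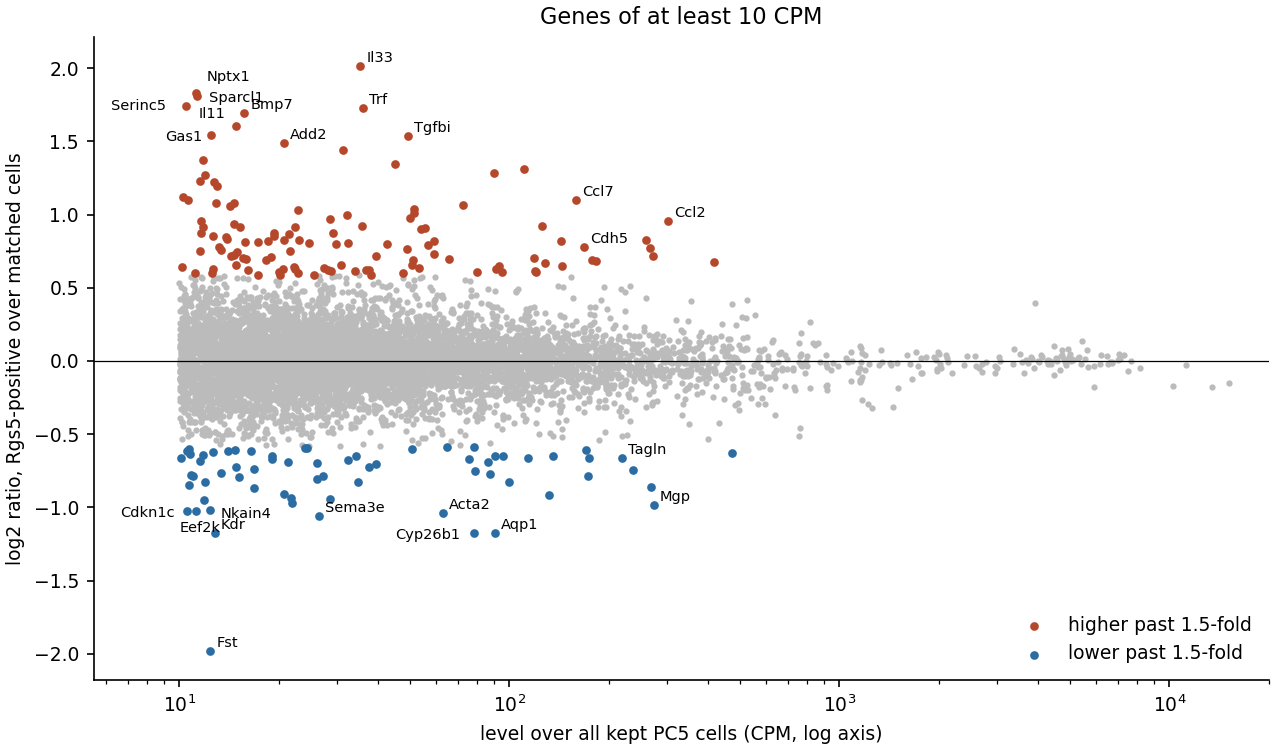
Log2 ratio of CPM, positive over matched cells, against the CPM over all kept PC5 cells (log axis) for the 7527 genes of at least 10 CPM; red points are past 1.5-fold higher and blue points past it lower, and the 20 ranked genes and 4 list members are labelled. Il33 stands highest at 2.01 and Fst lowest at -1.98, while most abundant genes lie near 0.

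Levels by the number of *Rgs5* UMIs in the cell are a description too, since the genes were chosen by the same contrast. From matched cells to cells with 1 *Rgs5* UMI to cells with 2 or more, *Il11* was at 14.9, 31.2 and 113 CPM, *Tgfbi* at 43.7, 115 and 186 CPM and *Serinc5* at 7.84, 21.7 and 48.5 CPM. *Il33* was at 26.4, 108 and 102 CPM. The last set holds 52 cells, so its levels rest on few cells.

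**Figure D5:**
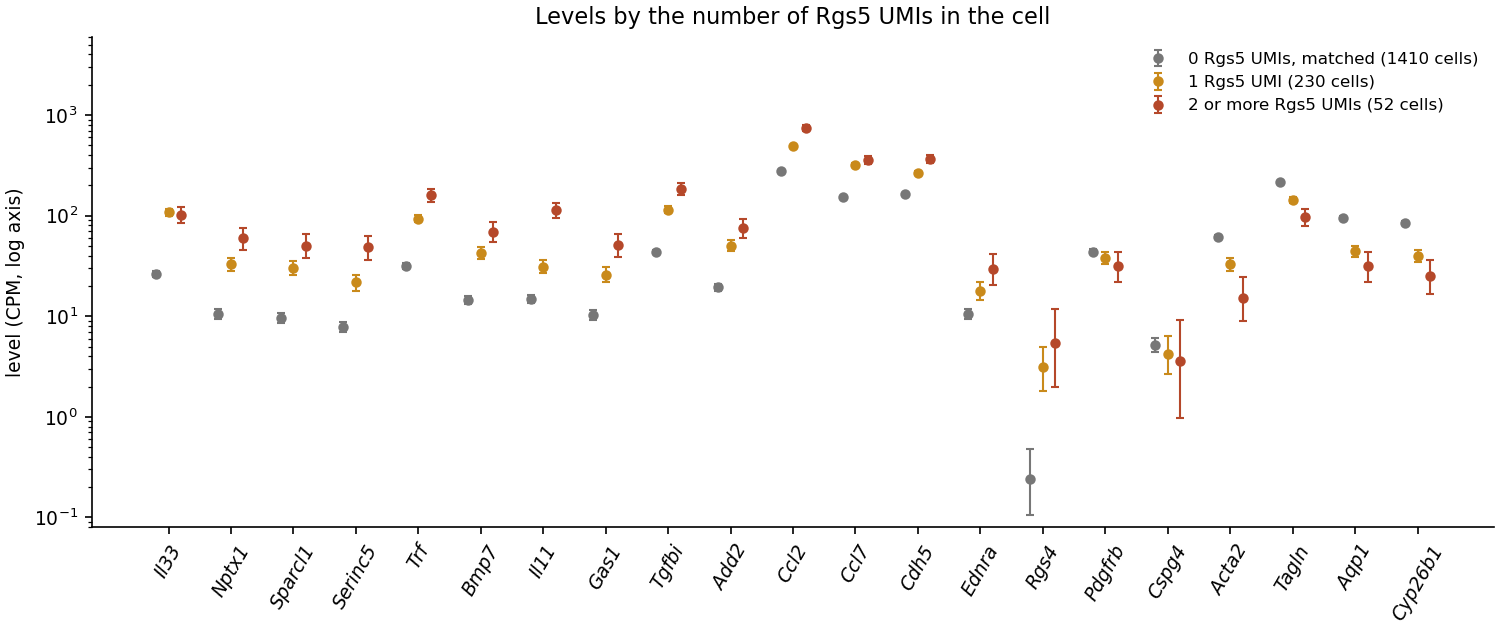
Level (CPM, log axis) of named genes in matched cells with 0 Rgs5 UMIs, in cells with 1 and in cells with 2 or more; bars are 95% exact Poisson intervals for counting error. Il11 goes from 14.9 to 31.2 to 113 CPM, and Acta2 goes the other way, from 61.5 to 32.9 to 15.3 CPM.

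Of the 119 genes past 1.5-fold higher, 106 were still past it without the top cell of each gene. Within clusters 51 of them were past 1.5-fold, with a median of 0.54 in place of 0.80 (log2). Of the 67 genes past 1.5-fold lower, all were still past it without the top cell and 30 were past it within clusters. The genes were chosen on the same positive cells, so these counts are a description.

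Among scarcer genes, of 1 to 10 CPM, the highest ratios belonged to *Atf3*, *S100a8*, *Igfbp5*, *Ntm*, *Plxdc1*, *Bmp2*, *Grem1*, *Pla2g7*, *Slc1a3* and *Cd34*. *Atf3*, a stress transcription factor, was set by a single cell, with 189 of its 197 UMIs, and only 2.48% of positive against 3.62% of matched cells held it. Without that cell its ratio of 3.90 became -0.63. *Igfbp5*, a binding protein of insulin-like growth factors, was at 56.7 and 4.70 CPM (3.59, 3.32 to 3.87) in 6.38% and 1.49% of cells. Although 1 cell held 138 of its 372 UMIs, the ratio without the top cell of each set was 3.51. The *Igfbp5* ratio was 6.22 with 1 matched cell per positive cell, 2.59 within clusters and 2.81 for at least 2 *Rgs5* UMIs.

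*Plxdc1*, a membrane protein known from tumour vessels, was found in 12.8% of positive and 1.99% of matched cells (2.73, 2.05 to 3.41). *Grem1*, a secreted BMP antagonist, was at 19.4 and 3.66 CPM (2.40, 2.03 to 2.78), in 14.5% and 3.83% of cells. *Bmp2*, a BMP ligand, was at 6.10 and 1.07 CPM (2.51, 1.82 to 3.21). These genes were likewise chosen by their ratio. *Pla2g7*, an enzyme that degrades platelet-activating factor, was found in 20.2% and 4.75% of cells (2.39), and *Slc1a3*, a glutamate transporter, at 18.2 and 3.60 CPM (2.33). *S100a8*, *Igfbp5*, *Slc1a3* and *Pla2g7* are leading genes of cluster 2, and all 10 genes were past 1.5-fold within clusters, *Atf3* again through its single cell. To be ranked here a gene needed at least 20 UMIs in positive cells, which the scarcest could reach only by being high there. The within-cluster count used the same positive cells, so it is a description.

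The 10 genes with the lowest ratio were *Fst*, *Aqp1*, *Kdr*, *Cyp26b1*, *Sema3e*, *Acta2*, *Eef2k*, *Cdkn1c*, *Nkain4* and *Mgp*. *Fst*, which encodes the activin antagonist follistatin, was at 3.51 CPM in positive and 13.9 CPM in matched cells (-1.98, -2.65 to -1.38). *Fst* leads cluster 3, where it was at 41.1 CPM, and within clusters its ratio was -0.66 (-1.35 to -0.03). *Aqp1*, a water channel, was found in 38.3% and 52.8% of cells (-1.17, -1.36 to -0.997), at 42.1 CPM in the positive cells, with -1.05 within clusters. *Cyp26b1*, which degrades retinoic acid, was at 37.5 and 84.6 CPM (-1.17, -1.37 to -0.98). *Aqp1* and *Cyp26b1* were lower in positive cells of cluster 2, of cluster 5 and of the other clusters.

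*Kdr*, the VEGF receptor 2 gene, was at 6.40 and 14.5 CPM (-1.17, -1.67 to -0.72). In cells without *Mki67* or *Top2a* its ratio was -0.54, inside 1.5-fold. *Acta2*, smooth muscle alpha-actin, was at 29.9 and 61.5 CPM (-1.04, -1.26 to -0.83), in 33.3% and 41.2% of cells, and -0.81 within clusters. *Mgp*, an inhibitor of calcification, was at 147 and 291 CPM (-0.99, -1.08 to -0.89) and at 1368 CPM in PC20. *Mgp* was at 1421 CPM in cluster 6, so its level depended strongly on the cluster, and within clusters its ratio was -0.66. Within clusters 9 of the 10 were past 1.5-fold lower, with *Nkain4* at -0.48. Since these 10 were ranked by their ratio in the same positive cells, that count is a description.

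Chemokines and cytokines were the list with the highest median. Of 24 members 9 reached 10 CPM, and *Ccl2*, *Ccl7*, *Il11* and *Tnfaip6* were past 1.5-fold higher (4 of 9, beside 1.58% of all genes), with none past it lower and a median of 0.58, beside 0.00 over all genes. *Il33* was not on the list. The 9 ratios ran from -0.49 for *Ptgs2* to 1.60 for *Il11*. *Ccl2*, a monocyte attractant, was at 533 and 275 CPM (0.96, 0.90 to 1.01), in 84.8% and 69.4% of cells. *Ccl7*, which acts on the same cells, was at 327 and 153 CPM (1.10, 1.02 to 1.17). Single cells with 361 *Ccl2* and 245 *Ccl7* UMIs were among the positive cells, and without the top cell of each set the ratios were 0.82 and 0.95. *Ccl2* was highest in cluster 2, at 694 CPM, and within clusters its ratio was 0.46, inside 1.5-fold, whereas that of *Ccl7* was 0.65.

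*Ccl2*, *Ccl7*, *Ccl11*, *Ccl12* and *Ccl8* lie within 81229 bases of chromosome 11, from 82035571 to 82116799. *Ccl11*, an eosinophil attractant, was at 15.9 and 4.64 CPM (1.77, 1.40 to 2.14). *Ccl12* was at 7.32 and 2.07 CPM (1.82, 1.26 to 2.37). *Ccl8* was at 14.3 and 11.2 CPM (0.35, 0.01 to 0.68), and its ratio turned sign within clusters. The genes of this stretch thus did not differ alike. *Cxcl10*, an interferon-induced chemokine, was at 12.5 and 7.47 CPM (0.74), and at -1.03 (log2) without the top cell. *Csf1*, a macrophage growth factor, and *Ptgs2*, the inducible cyclooxygenase, had ratios of -0.38 and -0.49. The 20 interferon-stimulated genes all reached 10 CPM, and none was past 1.5-fold (median 0.02).

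The counts of the lists that follow stand beside 1.58% of all genes past 1.5-fold higher and 0.89% past it lower. In the TGF-beta and BMP list, 18 of 32 genes in the files reached 10 CPM, with *Tgfbi* past 1.5-fold higher, 2 genes, *Fst* among them, past it lower and a median of 0.03. *Bmp7* was not on the list. Basement membrane genes were at a median of -0.01 over 13 genes. The most abundant did not differ much, with *Nid1* at 1792 and 1720 CPM (0.06) and *Col4a1* at 1085 and 1145 CPM (-0.08), while *Lama4*, the laminin alpha 4 chain of vessel walls, was at 29.1 and 16.5 CPM (0.82) and *Col18a1* at 35.1 and 19.8 CPM (0.83). Of 25 interstitial matrix genes, *Col5a3* and *Dcn* were past 1.5-fold higher (2 of 25, beside 1.58% of all genes) and *Thbs1* and *Lox* past it lower (2 of 25, beside 0.89%), with a median of -0.03. *Lox*, which crosslinks collagen, was at 155 and 282 CPM (-0.86, -0.95 to -0.77). Of 7 integrin genes at 10 CPM or more, *Itgb5* was past 1.5-fold lower (-0.60, median 0.05).

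Angiogenic factors were split. *Angptl2* was at 43.0 and 21.1 CPM (1.03, 0.82 to 1.23), *Angpt2*, the TIE2 ligand angiopoietin-2, at 16.5 and 28.4 CPM (-0.79, -1.09 to -0.50), and *Vegfa* at 227 and 176 CPM (0.37), with a median of 0.05 over 9 genes. The Notch list had a median of 0.10 over 5 genes with *Notch3* past 1.5-fold, and the PDGF list 0.09 over 3 genes with none past it. Of 22 hypoxia genes *Ndrg1* was past 1.5-fold higher, at 37.1 and 20.3 CPM (0.87), and the median was 0.19. That median was 0.11 within clusters and 0.05 in cells with 2 or more *Rgs5* UMIs. Of 18 CDK inhibitor and p53 target genes *Pmaip1* was past 1.5-fold higher and *Cdkn1c* lower (median 0.07). *Pmaip1* had a ratio of 0.61, which became 0.23 without the top cell. *Cdkn2a*, a cell cycle inhibitor, was at 655 and 527 CPM (0.31). No gene was past 1.5-fold among 19 S phase genes (median -0.06) or 33 G2 and M phase genes (-0.11). The S phase median was -0.44 in cells without *Mki67* or *Top2a* and -0.43 in cells with 2 or more *Rgs5* UMIs. The G2 and M phase median had no stable sign, at 0.13 with 1 matched cell per positive cell and 0.08 within clusters, and at -0.54 in cells with 2 or more *Rgs5* UMIs. No gene was past 1.5-fold among 16 immediate-early genes (-0.01) or 22 mural and mesenchymal transcription factors (0.06).

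*Cspg4*-positive cells were counted in the same way, because *Cspg4* is another PC marker detected in few PC5 cells. Of 1004 *Cspg4*-positive cells, 23 (2.29%, 1.46 to 3.42) held an *Rgs5* UMI, against 59 of 2008 *Cspg4*-negative cells of matched depth (2.94%, 2.24 to 3.77). The 23 cells were 8.16% of the *Rgs5*-positive cells. The sets also differed in where they lay, since 3.95% of cluster 2 and 17.7% of cluster 0 were *Cspg4*-positive. These 2 shares were not thinned to equal depth, and the median was 17211 UMIs in cluster 2 and 31143 in cluster 0.

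Side by side, *Acta2* had a log2 ratio of -1.04 in *Rgs5*-positive and of 0.87 in *Cspg4*-positive cells, each against its own matched cells. *Tagln* had -0.66 and 0.74, *Fst* -1.98 and 0.96, and *Aqp1* -1.17 and 0.59. In the other direction, *Il33* had 2.01 and -0.55, *Tgfbi* 1.54 and -0.40 and *Ccl2* 0.96 and -0.51. Not all genes had opposite signs or clear ratios in both sets, since *Nptx1* had 1.83 and 0.03, *Ednra* 0.91 and -0.02, *Mgp* -0.99 and -0.08 and *Pdgfrb* -0.25 and -0.09. The genes with opposite signs were picked after their values were seen, both sets come from 1 library, and the difference was not tested.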

How the data were processed

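The authors deposited raw UMI counts for every gene in every barcode, made with Cell Ranger 5.0 on mm10 and called as cells by them, with no normalization and no columns of other samples (0). The files list 31053 genes, of which 30934 identifiers matched GENCODE M21 (GRCm38). The cell filter (more than 1000 genes, under 20% mitochondrial UMIs) follows the paper's methods and left 9950 of 10629 PC5 and 4749 of 4884 PC20 barcodes.

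The members and gene lists were chosen with earlier results of these data known. UMIs of the 282 *Rgs5*-positive cells (6558038 in all) and of 1410 *Rgs5*-negative cells (32788787), 5 per positive cell by nearest total UMIs without replacement, were summed and scaled to 1000000 (CPM), with no pseudocount. Intervals are exact Poisson for CPM, exact conditional binomial for ratios and Clopper-Pearson for shares, at 95%. They leave out the spread between cells and between cultures. For a count of 0 the limit given is that of 3 counts. Differences past 1.5-fold were counted among genes of at least 10 CPM over kept PC5 cells. A within-cluster ratio uses matched cells from the same cluster.

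Clusters came from Seurat 5.3.0 (2000 variable genes without *Rgs5*, mitochondrial and ribosomal percentages regressed, 15 dimensions, resolution 0.8). A cluster is led by its 10 genes of highest fold. Doublets were not removed and no caller was run, and an alternative left out the 5% of cells with the most UMIs. Named genes are the markers in the study's methods, list members past 1.5-fold or most abundant, the 10 genes with the largest ratio in each direction, and the 10 highest of 1 to 10 CPM with at least 20 UMIs in positive cells, without pseudogenes and unnamed gene models. The further RGS, chemokine and receptor genes, and the genes set beside the *Cspg4*-positive cells, were named after their values were seen. Of the genes past 1.5-fold in a list, 1 is not reported here by name. Other matching, *Rgs5* thresholds, filters, depths and clusters were tried. Leaving out single cells, the top 2 clusters or shared barcodes was added after the data were seen. The computation of ratios and intervals was tested on simulated pooled counts with no spread between cells. That test cannot show how the intervals cover where UMIs gather in few cells. Python 3.11.15, numpy 2.4.6, scipy 1.17.1 and pandas 2.3.3 were used. Promoter windows are RefSeq's (GRCm38.p6).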

Additional observations from a re-analysis of the deposited data

Results flagged for a closer look

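*Rgs5* UMIs were also found in PC5 barcodes outside the kept cells. Among the 679 barcodes left out by the cell filter, 6 held 8 *Rgs5* UMIs, with at most 2 in 1 barcode, a level of 8.66 CPM (3.74 to 17.1) of 924207 UMIs against 1.82 CPM (1.64 to 2.00) in the kept cells. These 6 barcodes had between 392 and 929 genes each, all under the minimum of 1000. One of them had 56.5% mitochondrial UMIs and the others 11.4% or less. The 135 barcodes left out of PC20 held none.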

How the results depend on the processing

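The number of genes past 1.5-fold higher, 119, was 53 with matching within clusters, 496 for the 52 cells with at least 2 *Rgs5* UMIs, 216 in cells thinned to equal depth, 200 at a minimum of 5 CPM, 73 at 20 CPM, and 498 or 29 at a looser fold limit or at 2-fold. The number past it lower, 67, was 36, 692, 160, 126, 40, 409 and 9 under the same settings, and 176 in cells without *Mki67* or *Top2a*. The other alternatives gave 87 to 165 genes higher and 52 to 89 lower. The share of positive cells, 2.83%, was 1.57% after thinning, which leaves fewer UMIs per cell and left out 1103 shallower cells, and otherwise 2.83 to 2.95%. The highest share in a cluster, 6.38%, was 9.27% in a cluster of 259 cells at resolution 1.2. The medians of the PC, smooth muscle and chemokine lists lay between -0.12 and 0.07, -0.26 and -0.01, and 0.32 and 1.00. The G2 and M phase median, -0.11, was 0.13 with 1 matched cell, 0.08 within clusters, 0.11 outside clusters 2 and 5, -0.37 in cells without *Mki67* or *Top2a* and -0.54 for at least 2 *Rgs5* UMIs. The S phase median, -0.06, was 0.02, -0.44 and -0.43 in the last 3 of these. For 62 genes run under the alternatives in cells, matching and scaling, 867 values were compared with the main ratio. Without a counted turn of sign, 172 of them lay outside the interval of the main ratio. A turn of sign was counted only for genes past 1.5-fold in the main comparison, and 7 values turned sign in this way. *Atf3* was at -0.85 in cells without *Mki67* or *Top2a* and at -0.63 without its top cell. *Anpep* was at -0.18 within clusters and also after thinning, and at -0.49 outside clusters 2 and 5. *Lum*, at 1.08, was at -0.74 outside clusters 2 and 5, and *Pmaip1* at -0.14 in cells without *Mki67* or *Top2a*. Among named genes outside these 62, *Cxcl10*, at 0.74, was at -1.03 without its top cell, and *Ccl8*, at 0.35, at -0.20 within clusters. Except where a sentence above gives it, the cause was not tested. No replicate could be left out, since each passage has 1 library. No paired analysis was possible because each passage has 1 library and no test was made. Depth limits genes with few UMIs in the 282 cells, such as *Cspg4* with 27, whose interval runs from -0.98 to 0.25.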
